A study of Mus musculus with 28 samples.

Results

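A set of 10 genes of vitamin D hormone handling was followed by their symbols in the count tables of 2 mouse tissues, and all 10 had a row in both tables. Cyp27b1, Cyp24a1, Cyp2r1 and Cyp27a1 encode enzymes that make or break down the hormone. Fdxr and Fdx1 encode electron carriers of the mitochondrial enzymes among these. Lrp2, Cubn, Dab2 and Amn act in uptake of the filtered hormone precursor. After a filter on low counts, 6 of the 10 were tested among 13302 of 31179 symbols in duodenum, and 9 among 13502 of 30227 symbols in kidney cortex. The 4 not tested in duodenum were Cyp27b1, Cyp24a1, Cyp2r1 and Lrp2, and the 1 not tested in kidney was Cyp2r1. The study set mice with no vitamin D receptor (VDR) signalling beside mice whose receptor signals without co-activators. Each tissue had 6 libraries of Vdr+/+ mice (WT), 4 of Vdr-/- mice (KO, "vdr-/- demay" in the file headers) and 4 of Vdr AF2 mice (AF2, genotype "delta AF2" in the labels). All groups were females aged 8 weeks on the diet TD.96348, rich in calcium, phosphate and lactose, which the design text describes as a means to avoid low blood calcium and phosphate, at least in KO. The mouse strain and the way the 2 alleles were made are not stated in the labels.

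As background, vitamin D is hydroxylated in the liver by Cyp2r1 and, with less specificity, by Cyp27a1, and the product circulates bound to a carrier protein. In the kidney proximal tubule, megalin (Lrp2) and cubilin (Cubn), with amnionless (Amn) and the adaptor Dab2, retrieve the filtered carrier, and Cyp27b1 converts the precursor to the active hormone calcitriol. Calcitriol acting through VDR is known to repress renal Cyp27b1 and to induce Cyp24a1, which inactivates both precursor and hormone. Cyp27b1, Cyp24a1 and Cyp27a1 are mitochondrial cytochrome P450 enzymes that receive electrons from ferredoxin reductase (Fdxr) through ferredoxin (Fdx1).

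Libraries held 3713352 to 25181916 counts in duodenum and 3725648 to 6492228 in kidney, and each read appears to be counted 2 times, so reads below are counts divided by 2. Levels are given in CPM, counts scaled to library size and composition but not to gene length, and are not compared between genes. Vdr averaged 487, 111 and 398 CPM in WT, KO and AF2 duodenum and 197, 17.0 and 80.9 CPM in WT, KO and AF2 kidney, and where its reads lie relative to the altered part of the gene is not given. All 8 enterocyte markers had reads in duodenum and all 10 proximal tubule markers in kidney. In kidney the enterocyte genes Alpi, Sis and Fabp2 were at 0 in every group, and the other 5 had reads. The enterocyte list summed there to 166 to 199 CPM in WT, 166 to 188 CPM in KO and 156 to 178 CPM in AF2. Slc5a1 and Vil1, which averaged 109 and 68.8 CPM in WT kidney, made up most of that sum. The kidney library AF2 4 stood apart, with a median correlation of 0.930 with its group against 0.944 or more in the other 13 kidney libraries, so results that rest on it are given with and without it. The library codes form 3 runs of consecutive numbers in each tissue: WT 1 and WT 2, then WT 3 and WT 4 with all KO, then WT 5 and WT 6 with all AF2. The labels do not tie each library to its own mouse, and p-values measure the spread between these libraries. In bulk tissue, fewer cells of a type and less RNA per cell cannot be told apart.

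In kidney cortex, Cyp27b1 was far higher and Cyp24a1 far lower in both mutants than in WT, and none of the other 7 tested genes passed the threshold. Against WT, 2 of the 9 tested genes were called in KO, where 0.844% of all tested genes were called, and 2 of 9 in AF2, where 2.71% were called. Calls are at an adjusted p under 0.05 by edgeR's quasi-likelihood F test, with Benjamini-Hochberg adjustment over all genes tested. At an unadjusted p under 0.05 a further 2 genes (Cyp27a1 and Dab2) passed in KO, beside 10.5% of all genes, and 1 (Lrp2) in AF2, beside 14.5%. Both comparisons use the same WT libraries. Between AF2 and KO 0 of the 9 were called, beside 0.333% of all genes. At an unadjusted p under 0.05 there were also 0, beside 11.5% of all genes, and DESeq2 and limma-voom called 0.

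Cyp27b1 lies on chromosome 10, 127048250 to 127053006 (GRCm38), on the forward strand, and no other annotated gene overlaps it. Its promoter is printed because Cyp27b1 is the gene of the set that rose, and that of Cyp27a1, a P450 gene that was not called, is set beside it. Each run is the 250 bases before the RefSeq start (GRCm38.p6), chr10:127047996-127048245 and chr1:74713285-74713534, both on the forward strand. Capitals mark the box CCAAT, read on the reverse strand.
Cyp27b1: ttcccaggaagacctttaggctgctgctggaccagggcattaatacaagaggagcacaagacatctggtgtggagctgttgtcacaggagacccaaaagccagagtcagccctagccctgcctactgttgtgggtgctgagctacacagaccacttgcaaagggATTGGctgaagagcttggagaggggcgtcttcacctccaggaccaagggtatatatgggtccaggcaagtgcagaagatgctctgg
Cyp27a1: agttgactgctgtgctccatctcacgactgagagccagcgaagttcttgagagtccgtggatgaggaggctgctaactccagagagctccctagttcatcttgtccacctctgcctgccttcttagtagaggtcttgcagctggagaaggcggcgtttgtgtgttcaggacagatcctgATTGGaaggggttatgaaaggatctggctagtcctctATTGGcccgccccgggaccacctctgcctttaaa

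Both strands of these windows were searched for 4 motifs, and matches are descriptions of letters. CCAAT, found in 33.8% of 32851 RefSeq windows of this length, occurred 1 time in the Cyp27b1 window, at -86 to -82 from the start, and 2 times in that of Cyp27a1. Windows of Cyp2r1, Fdxr and Amn also held it. The cyclic AMP response element TGACGTCA (1.55% of windows) and its shorter form TGACG (17.8%, contained in the longer motif) were absent from all 10 windows searched. The VDR direct repeat was searched as its consensus of 2 hexamers of the AGGTCA family with 3 bases between them. No copy with up to 1 difference (4.92% of windows) lay in any of the 10. With up to 2 differences, which 42.1% of windows hold, the Cyp27b1 window had 1 match, at -56 to -42, that of Cyp27a1 had 2, and those of Cubn, Cyp2r1, Fdxr and Amn had 1 each. In all, 9 of the 10 genes had a RefSeq window (Dab2 had 2), and Cyp24a1 had none in the table used.

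In kidney, WT 1 to WT 6 gave Cyp27b1 levels of 3.46, 2.13, 1.81, 0.73, 1.43 and 1.68 CPM, from 27 reads in all. KO 1 to KO 4 gave 48.4, 90.1, 155 and 166 CPM, from 1278 reads. AF2 1 to AF2 4 gave 327, 294, 248 and 21.5 CPM, from 1929 reads. Every mutant library lay above every WT library, and AF2 4 was the lowest of the 8 mutant libraries, below all KO. Means were 1.87 ± 0.907 CPM (SD, n = 6) in WT, 115 ± 55.6 CPM (SD, n = 4) in KO and 223 ± 138 CPM (SD, n = 4) in AF2. Cyp27b1 rose by a log2 fold change of 5.93 ± 0.78 (SE) in KO, with an edgeR adjusted p of 0.00445. In AF2 it rose by 6.88 ± 0.78, with an edgeR adjusted p of 0.000473. By absolute fold change it ranked 3 among the 114 genes called in KO and 3 among the 366 called in AF2.

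AF2 and KO overlapped in Cyp27b1 when AF2 4 was kept, with a log2 difference of 0.94 ± 0.62 (adjusted p 0.614 in edgeR), or 0.46 with limma-voom. Without AF2 4, the AF2 mean was 290 ± 39.3 CPM (SD, n = 3) and its lowest library, at 248 CPM, lay above the highest KO library. That difference was 1.32 ± 0.35 in edgeR, with an adjusted p of 0.21, and did not pass. Against WT, the AF2 rise without AF2 4 was 7.25 ± 0.44, with an edgeR adjusted p of 6.49e-06.

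Cyp27b1 within runs of library codes gave the same direction, with fewer WT libraries behind it. The WT libraries of the KO run were 0.73 and 1.81 CPM and those of the AF2 run 1.43 and 1.68 CPM, all below every mutant library. With only those WT libraries the rise was 6.48 ± 1.04 in KO and 7.14 ± 1.85 in AF2, with edgeR adjusted p of 0.183 and 0.443. With the run as a block in the 14-library fit it was 6.48 ± 1.43 and 7.14 ± 1.47, with edgeR adjusted p of 0.257 and 0.0726. The size was kept in these fits and the call was not. With limma-voom the KO rise was 5.89 with an adjusted p of 0.116. A two-sided exact permutation test over libraries on log2(CPM + 0.1) gave p = 0.00952 for KO against WT and for AF2 against WT, the smallest value that 4 against 6 libraries allow, and 0.657 for AF2 against KO.

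Cyp24a1 lies on chromosome 2, 170482708 to 170497145, on the reverse strand, where its annotated span overlaps Pfdn4. Whether the counting used strand is not given, so reads from the overlap could not be assigned with certainty. WT 1 to WT 6 gave kidney Cyp24a1 levels of 36.3, 15.3, 10.5, 8.42, 10.5 and 17.9 CPM, from 233 reads in all. In KO it was 0.41 CPM in KO 2, from 1 read, and 0 in KO 1, KO 3 and KO 4. In AF2 it was 0.47 CPM in AF2 2 and 0.42 CPM in AF2 3, from 1 read each, and 0 in AF2 1 and AF2 4. Both mutant groups were therefore at the limit of detection at this depth, and WT 1 was the highest WT library.

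Per library size, WT had 167 times the Cyp24a1 reads of KO, with an exact 95% interval of 29.7 to 6630, and 74.3 times those of AF2, with an interval of 20.3 to 617. These Poisson intervals cover counting error only. The gene fell in both comparisons, with edgeR adjusted p of 5.09e-06 in KO and 3.46e-06 in AF2. The two-sided exact permutation test gave p = 0.00952 for each, the smallest value possible. Between the mutants, the KO to AF2 ratio was 0.445 with an interval of 0.00754 to 8.54, so a difference was not detectable at this depth. Without WT 1, WT averaged 12.5 ± 3.94 CPM (SD, n = 5), and without AF2 4 the gene was still called in AF2, with an edgeR adjusted p of 3.10e-05.

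**Figure D1:**
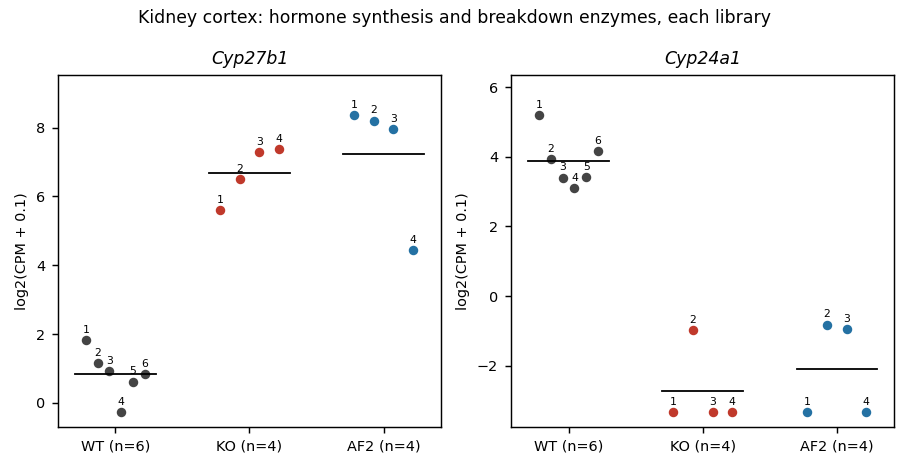
Kidney Cyp27b1 (left) and Cyp24a1 (right) in each library, as log2(CPM + 0.1) on the vertical axis and genotype on the horizontal axis, with the replicate number above each point and a bar at the group mean of the log2 values. The 6 WT libraries lie below all mutant libraries for Cyp27b1 and above all for Cyp24a1, and AF2 4 sits at 21.5 CPM below the other AF2 libraries for Cyp27b1.

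The kidney genes whose log2 CPM followed Cyp27b1 most closely over the 14 libraries were Glul (Pearson r 0.969), AW822252 (0.942) and Amdhd1 (0.935). Glul, which encodes glutamine synthetase, averaged 803, 1507 and 1818 CPM in WT, KO and AF2, and Amdhd1, an enzyme of histidine breakdown, 1.69, 13.3 and 17.3 CPM. Those most like Cyp24a1 were Agmo (0.936), Rdh16f2 (0.931) and Etv1 (0.919), a transcription factor that averaged 20.3, 1.69 and 1.38 CPM. The 14 points share library and depth and fall into the 3 genotypes, so these values describe likeness across the groups.

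Of the genes next to Cyp27b1, 5 were tested in kidney, and 1, Eef1akmt3, a lysine methyltransferase gene, was called. Eef1akmt3 lies on chromosome 10, 127031004 to 127041513, on the reverse strand, overlaps Mettl1, and averaged 4.72, 26.8 and 49.2 CPM in WT, KO and AF2. It rose by 2.48 ± 0.33 in KO and by 3.34 ± 0.33 in AF2 on the log2 scale, with edgeR adjusted p of 0.000963 and 1.19e-05. Mettl1, Tsfm, March9 and Cdk4 were not called in either comparison. The neighbours' median log2 fold change was -0.14 in KO and 0.03 in AF2, beside 0.00 over all tested genes in each.

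Among 21 genes known to act in the control of renal Cyp27b1 and Cyp24a1, all tested in kidney, Vdr alone was called in each comparison. Vdr fell by 3.54 on the log2 scale in KO and by 1.29 in AF2, with edgeR adjusted p of 1.62e-10 and 6.16e-05. The other 20 include the receptors for parathyroid hormone (Pth1r) and FGF23 (Fgfr1, Fgfr3, Fgfr4 with the co-receptor Kl). The mean of Pth1r was 660 CPM over WT and 519 CPM over KO, a log2 difference of -0.35 ± 0.11 with an edgeR adjusted p of 0.136. The list's median log2 fold change was 0.01 in KO and -0.03 in AF2.

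Kidney Cyp27a1, a mitochondrial enzyme able to hydroxylate vitamin D, was 25.3 to 33.9 CPM in WT with a median of 27.6. KO 1 to KO 4 held 36.0, 36.2, 34.2 and 39.3 CPM, and AF2 1 to AF2 4 held 31.3, 31.8, 29.8 and 25.5 CPM. The KO libraries thus lay above every WT and every AF2 library, by a narrow margin over the highest WT library. The KO log2 fold change was 0.35 ± 0.14, with an unadjusted p of 0.0156 and an edgeR adjusted p of 0.308, and AF2 differed from KO by -0.30 ± 0.15 with an adjusted p of 0.45. Within runs of library codes these Cyp27a1 values were smaller: the WT libraries were 30.0 and 33.9 CPM in the KO run and 25.3 and 27.5 CPM in the AF2 run. Against the WT of its own run KO differed by 0.19 ± 0.17 (edgeR adjusted p 0.828), and with the run as a block AF2 differed from KO by -0.02 ± 0.26 (edgeR adjusted p 0.998). Groups did not overlap for 3 of the 9 tested genes in KO against WT (Cyp27b1, Cyp24a1 and Cyp27a1), beside 3.44% of all genes. They did not overlap for 2 of 9 in AF2 against WT, beside 4.73%, and for 1 of 9 (Cyp27a1) in AF2 against KO, beside 7.16%.

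Cyp2r1, the main liver enzyme of the first step, was barely read in either tissue. Kidney held 18, 14 and 6 reads in WT, KO and AF2, and duodenum 14, 10 and 13 reads. Its highest library was 2.24 CPM in kidney and 2.03 CPM in duodenum, and it was not tested.

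Neither electron carrier was called in kidney. Kidney Fdx1 was 75.4 to 94.6 CPM over the WT libraries. KO 1 to KO 4 had 76.7, 70.0, 84.4 and 75.6 CPM of it, and AF2 1 to AF2 4 had 89.7, 82.2, 85.2 and 47.4 CPM. The 3 other AF2 libraries lay inside the WT range and AF2 4 well below it. Its log2 fold change was -0.10 ± 0.13 in KO and -0.12 ± 0.13 in AF2, or 0.05 ± 0.11 in AF2 without AF2 4. Kidney Fdxr averaged 10.5 ± 3.94 CPM (SD, n = 6) in WT, 9.38 ± 1.90 (SD, n = 4) in KO and 12.6 ± 4.01 (SD, n = 4) in AF2, and the groups overlapped. The approximate 95% intervals of these kidney differences from WT reached at most 0.79 on the log2 scale (Fdxr in AF2), so they allow changes of that size.

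None of the 4 uptake genes passed the adjusted threshold in kidney. Lrp2, the endocytic receptor megalin, was 1665 to 1998 CPM in WT with a median of 1760. KO 1 to KO 4 measured 1786, 2033, 1784 and 1565 CPM, and AF2 1 to AF2 4 measured 1577, 1708, 1663 and 1094 CPM. KO spanned the WT range, and AF2 4 was the lowest of all 14 libraries. The Lrp2 log2 fold change was 0.01 ± 0.11 in KO and -0.24 ± 0.11 in AF2, the latter with an unadjusted p of 0.0403 and an edgeR adjusted p of 0.308. Without AF2 4 the AF2 value was -0.12 ± 0.09, with an edgeR adjusted p of 0.692.

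Cubn, the receptor that binds the carrier protein with megalin, was 131 to 179 CPM in WT with a median of 169. Its levels were 133, 128, 148 and 114 CPM from KO 1 to KO 4, against 126, 169, 152 and 64.1 CPM from AF2 1 to AF2 4. Except for WT 6, at 131 CPM, every WT library lay above every KO library. The Cubn log2 fold change was -0.34 ± 0.19 in KO and -0.37 ± 0.19 in AF2, with edgeR adjusted p of 0.577 and 0.396. Without AF2 4 these were -0.34 ± 0.10 and -0.15 ± 0.11, with adjusted p of 0.0966 and 0.658, so the AF2 value rested on that library. Gm13270 overlaps Cubn, and Gm16311 and Gm18888 overlap Dab2, with the same limit on strand as for Cyp24a1.

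Dab2, the adaptor that links megalin to clathrin, was 409 to 564 CPM in WT with a median of 505. KO 1 to KO 4 showed 471, 440, 396 and 382 CPM, and AF2 1 to AF2 4 showed 427, 489, 445 and 380 CPM. KO overlapped WT at WT 6 alone, the lowest WT library, and AF2 also at WT 1, with 485 CPM. The Dab2 log2 fold change was -0.25 ± 0.10 in KO and -0.21 ± 0.10 in AF2, with edgeR adjusted p of 0.359 and 0.366. Amn, which anchors cubilin at the membrane, was 169 to 190 CPM in WT, 150 to 192 CPM in KO and 154 to 230 CPM in AF2. AF2 4 was the highest library of all for Amn, the opposite of its place for Lrp2, Cubn and Fdx1. The Amn log2 fold change was -0.03 ± 0.11 in KO and 0.03 ± 0.11 in AF2.

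**Figure D2:**
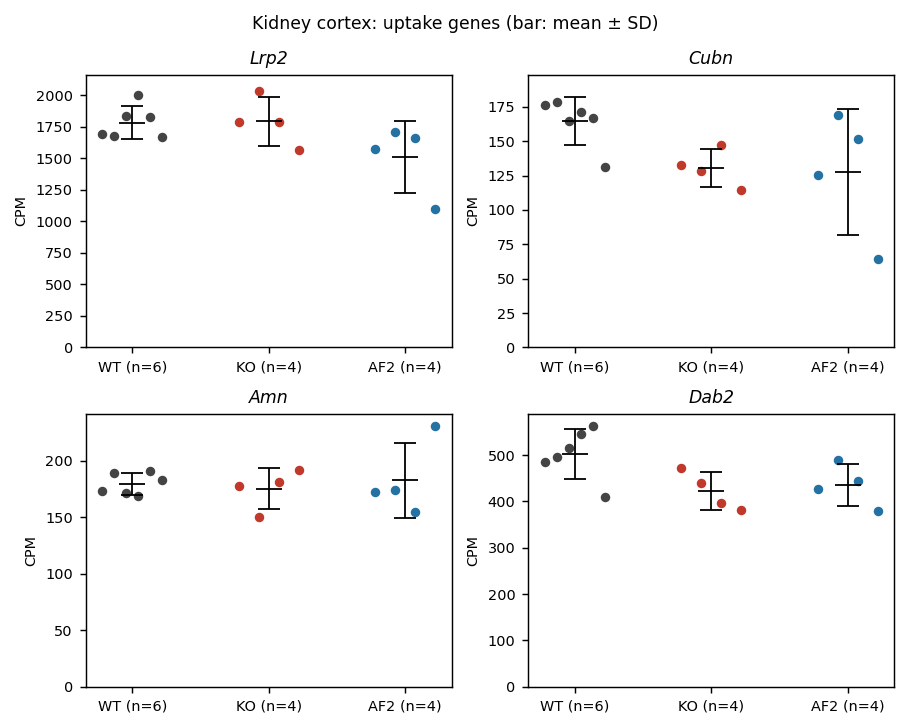
Kidney CPM of the uptake genes Lrp2, Cubn, Amn and Dab2 on the vertical axes by genotype, with 1 point per library and bars for the mean ± SD (WT n = 6, KO n = 4, AF2 n = 4). The groups overlap in all 4 panels, and the rightmost AF2 point, AF2 4, is the lowest for Lrp2 (1094 CPM) and Cubn (64.1 CPM) and the highest for Amn (230 CPM).

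The 10 markers of the proximal tubule, where the uptake genes and Cyp27b1 act, summed to 16391 to 21102 CPM in WT, 15966 to 18982 CPM in KO and 12772 to 17722 CPM in AF2. Most of this sum is 1 gene, Kap, which averaged 11026, 10427 and 7860 CPM in WT, KO and AF2 and was not called. The median log2 fold change of the 10 markers was -0.09 in KO and -0.22 in AF2, and single markers moved in both directions. In KO, 1 of the 10 markers was called higher (Miox) and 1 lower (Slc22a8), and in AF2 2 were called lower (Slc22a8 and Slc13a3). Markers of the thick ascending limb, Umod and Slc12a1, were both called higher in AF2, and Slc12a1 was also called higher in KO. Podocyte markers summed to 300.04 to 370 CPM in AF2, 230 to 257 CPM in KO and 185 to 246 CPM in WT. AF2 4 had 17722 CPM of proximal tubule markers, the highest of its group, and 370 CPM of podocyte markers, the highest of all kidney libraries. Adrenal cortex markers, another site of mitochondrial P450 enzymes, summed to 1.81 to 12.4 CPM with Cyp11b1 and Cyp21a1 at 0 in every group. The part of these markers in the values of the uptake genes was not tested.

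Of 15 genes of the endocytic machinery around megalin, all were tested in kidney and 0 were called in KO or in AF2 against WT. Their median log2 fold change was -0.05 in KO and -0.04 in AF2. Of 13 symbols listed for other genes of vitamin D metabolism and carriage, 5 were tested in kidney and 0 were called. The median of these 5 was -0.17 in both comparisons, beside 0.00 over all genes. They include Gc, the circulating carrier protein, whose mean was 73.6 CPM among WT libraries and 104 CPM among KO libraries, a log2 difference of 0.50 ± 0.18 with an edgeR adjusted p of 0.271. The genes most like Lrp2 over the 14 kidney libraries were Agfg1 (Pearson r 0.925), Snrnp70 (0.917) and Gng5 (0.902), in points that share library and depth.

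**Figure D3:**
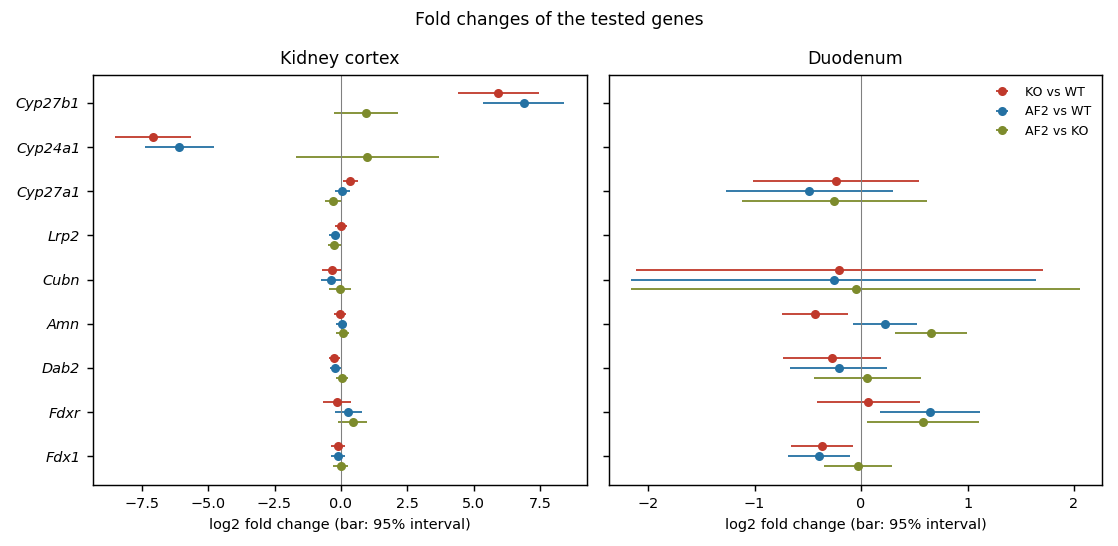
Log2 fold change of each tested gene (points) with bars for the 95% interval, for KO against WT, AF2 against WT and AF2 against KO, in kidney cortex (9 genes, left) and duodenum (6 genes, right), on horizontal axes of different length. In kidney Cyp27b1 and Cyp24a1 lie far from 0 against WT and the other 7 genes within 0.4 of it, and in duodenum no gene passed the threshold.

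In duodenum the hormone enzymes were essentially unread. Cyp24a1 had 0 reads in all 14 libraries, which allows up to 0.123, 0.355 and 0.322 CPM over the pooled WT, KO and AF2 libraries (3 reads each). Cyp27b1 had 1 read in WT 2 (0.08 CPM) and 1 in WT 5 (0.53 CPM), and 0 in the 12 other libraries, all KO and AF2 among them. Duodenal Cyp27b1 was thus not detectable in either mutant at this depth, with the same upper limits. Lrp2 had 9, 1 and 5 reads in WT, KO and AF2.

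Of the 6 genes tested in duodenum, 0 were called in KO against WT, where 0.0226% of all genes were called, and 0 in AF2 against WT, beside 0.0677%. At an unadjusted p under 0.05, 2 of 6 passed in each, beside 11.4% and 11.8% of all genes, and DESeq2 and limma-voom called 0. In AF2 against KO edgeR called 0, beside 0.015% of all genes, with 2 of 6 at an unadjusted p under 0.05, beside 9.98%. For that comparison DESeq2 called 1 gene of the set, Amn, beside 1.25% of all genes with an adjusted p (76 genes), and limma-voom 0.

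For duodenal Amn, WT 1 to WT 6 gave 40.9, 47.8, 62.0, 41.8, 65.3 and 52.8 CPM. KO 1 to KO 4 gave 35.8, 47.6, 40.5 and 29.2 CPM, and AF2 1 to AF2 4 gave 63.8, 62.5, 62.3 and 53.0 CPM. AF2 lay above KO without overlap, and WT spanned the space between them. The AF2 to KO difference was 0.66 ± 0.17 on the log2 scale, with an unadjusted p of 0.000716 and an edgeR adjusted p of 0.154. It passed with DESeq2, at an adjusted p of 0.0348, and in edgeR without the filter on low counts, at 0.0296, a fit that called 0.408% of all genes (106 genes). These were the only 2 of 8 alternative settings to pass. Over the 8 the difference was 0.47 to 0.68, with adjusted p up to 0.59 across the tools used. With each library left out, 0 of 14 edgeR fits passed. All KO libraries lie in 1 run of library codes and all AF2 libraries in another. Against WT, Amn differed by -0.43 ± 0.16 in KO (edgeR adjusted p 0.304) and by 0.23 ± 0.15 in AF2 (edgeR adjusted p 0.595), or by 0.05 ± 0.18 in AF2 against the WT of its own run. Smooth muscle markers summed to 528 to 664 CPM in AF2, 393 to 479 CPM in KO and 340 to 561 CPM in WT, and like Amn did not overlap between AF2 and KO. None of the 4 smooth muscle markers was called, and their part in the Amn values was not tested.

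Duodenal Fdxr was 8.81 to 17.0 CPM over the WT libraries. Its KO 1 to KO 4 values were 15.9, 8.61, 20.5 and 9.13 CPM and its AF2 1 to AF2 4 values 25.7, 17.6, 17.3 and 20.8 CPM. AF2 lay above every WT library, and KO overlapped both. The AF2 log2 fold change was 0.65 ± 0.24, with an edgeR adjusted p of 0.282. Fdx1, its partner, averaged 59.3 ± 8.65 CPM (SD, n = 6) in WT, 46.0 ± 2.91 (SD, n = 4) in KO and 45.3 ± 10.8 (SD, n = 4) in AF2. Its log2 fold changes were -0.37 ± 0.15 and -0.39 ± 0.15, with edgeR adjusted p of 0.343 and 0.297. In AF2 the Fdx1 libraries were 40.0, 40.2, 39.4 and 61.4 CPM, with AF2 4 above the others. Enterocyte markers summed to 12610 to 25853 CPM in WT, 11939 to 16357 CPM in KO and 12690 to 18044 CPM in AF2. Paneth cell markers summed to 1529 to 2880 CPM in WT, 2801 to 5620 CPM in KO and 1773 to 4827 CPM in AF2, with 0 of 3 called. The part of these markers in the duodenal values was not tested.

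Groups did not overlap in duodenum for 0 of the 6 tested genes in KO against WT, beside 2.2% of all genes. They did not overlap for 1 (Fdxr) in AF2 against WT, beside 2.73%, and for 1 (Amn) in AF2 against KO, beside 6.56%. The remaining genes overlapped in every comparison. Cubn spread from 0 to 11.6 CPM within WT alone, Dab2 was 7.09 to 17.4 CPM over all libraries, and Cyp27a1 averaged 15.3 ± 5.93 CPM (SD, n = 6) in WT, 13.0 ± 5.85 (SD, n = 4) in KO and 10.99 ± 6.92 (SD, n = 4) in AF2. Cyp27a1 in KO differed by -0.24 ± 0.40 from WT on the log2 scale, with an approximate 95% interval of -1.01 to 0.54. Acinar pancreas markers ranged from 34.4 to 10371 CPM among the WT duodenal libraries, from 65.5 to 6330 CPM in KO and from 186 to 4836 CPM in AF2. Endocytic genes (14 tested) and other vitamin D metabolism genes (8 tested) had 0 calls in duodenum, and Vdr was the single call of the 18 control genes in KO, with 0 in AF2.

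**Figure D4:**
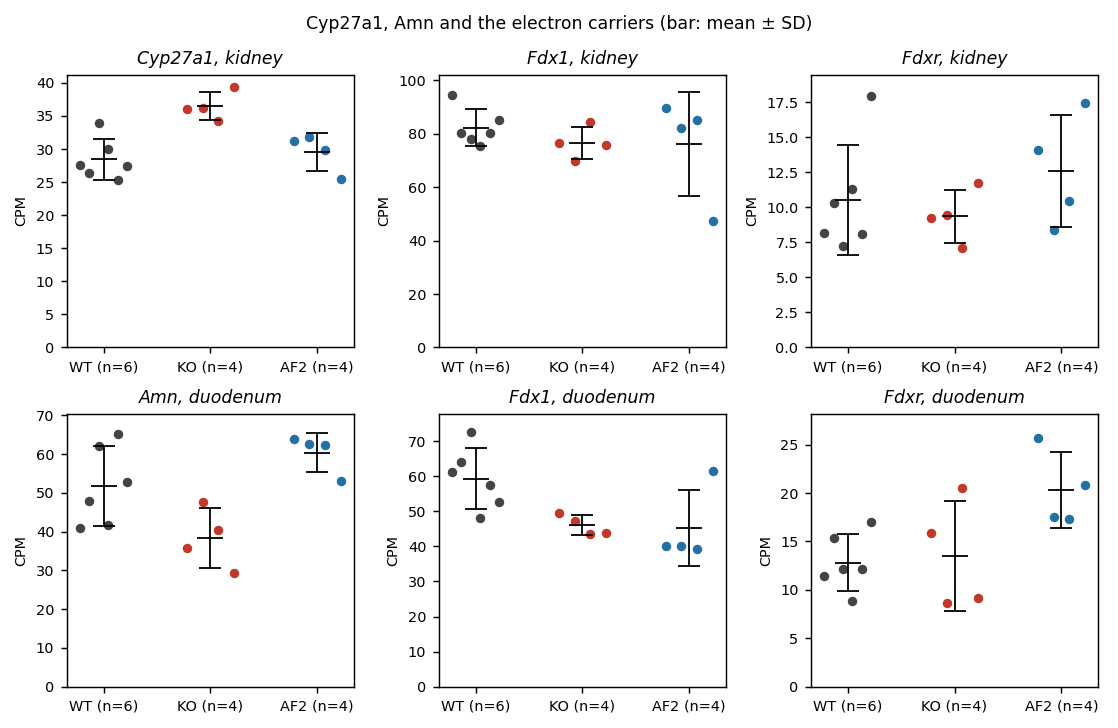
CPM on the vertical axes by genotype for Cyp27a1, Fdx1 and Fdxr in kidney (top) and Amn, Fdx1 and Fdxr in duodenum (bottom), with 1 point per library and bars for the mean ± SD (WT n = 6, KO n = 4, AF2 n = 4). Kidney Cyp27a1 is highest in KO (34.2 to 39.3 CPM), duodenal Amn is 53.0 CPM or more in AF2 and 47.6 CPM or less in KO, and none of the 6 panels holds a call.

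Most of the set was expressed at a higher level in WT kidney than in WT duodenum. With all 28 libraries in 1 fit, 8 of the 9 tested genes were called in this comparison, all higher in kidney, where 69.9% of all genes were called in either direction and 34.3% higher in kidney. In the scale of that fit, Lrp2 was 1847 ± 121 CPM (SD, n = 6) in kidney and 0.503 ± 0.599 CPM (SD, n = 6) in duodenum, and Cubn 171 ± 18.4 and 4.44 ± 4.53 CPM. Dab2 was 521 ± 54.8 and 13.9 ± 1.45 CPM and Amn 186 ± 11.2 and 51.2 ± 9.98 CPM, log2 differences of 5.23 ± 0.15 for Dab2 and 1.87 ± 0.12 for Amn, the smallest of the 4 uptake genes. Cyp27a1 and Fdx1 were higher in kidney by 0.96 ± 0.25 and 0.54 ± 0.13, with edgeR adjusted p of 0.00102 and 0.000356. Fdxr was not called, at -0.25 ± 0.24 with an edgeR adjusted p of 0.351. Cyp27b1 was 1.95 ± 0.946 CPM in kidney, called with an edgeR adjusted p of 0.0183, but its adjusted p was 0.0568 without duodenal WT 2, 0.0748 with halved counts and 0.211 with limma-voom.

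Whether a genotype effect differed between tissues was tested as an interaction over the 28 libraries, and edgeR called 0 of 9 genes for KO, beside 0.0535% of all genes, and 0 for AF2, beside 0.381%. At an unadjusted p under 0.05 there was 1 gene for KO (Amn, 0.43 ± 0.19, edgeR adjusted p 0.542) and 0 for AF2, beside 7.99% and 10.7% of all genes. For Cyp27b1, Cyp24a1 and Lrp2 the duodenal effect rests on 0 to 9 reads a group, so their edgeR estimates were too imprecise to read. DESeq2 called 2 genes of the set in each interaction, Cyp27b1 and Cyp24a1, and limma-voom called 0. Beside these DESeq2 called 0.486% of all genes for KO (67 genes) and 1.25% for AF2 (187 genes). In duodenum Cyp24a1 had 0 reads in every group, and Cyp27b1 had 2 in WT and 0 in each mutant. The 2 DESeq2 calls therefore restate the kidney effect and do not show that the effect differs in duodenum.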

How the data were processed

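RNA was extracted with TRIzol and sequenced as QuantSeq libraries, which read transcript 3' ends, per the labels' protocols. Per the file headers, the authors deposited 1 table of raw counts for each tissue, with gene symbols as rows, libraries as columns, and genotype, sex, age and diet of each library. The submitters' processing notes name mm10 and limma 3.34.9 without a role. No source used here gives the aligner, counter, strand use or filters. With 0 odd values in the tables, all counts were even, hence the halving for reads. Columns were matched to samples by library code, and all were used.

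Each tissue was fitted with all 14 libraries in edgeR 4.0.16 (R 4.3.3): filterByExpr by group, TMM scaling, genotype as the only term, robust quasi-likelihood F tests, two-sided, and Benjamini-Hochberg adjustment over all genes tested at 0.05. All adjusted p-values are from edgeR unless another tool is named. Differences between tissues came from 1 fit of 28 libraries over 14944 of 27271 shared symbols. The SE was derived from each fold change and its F statistic, and CPM use TMM-scaled library sizes. The floor for 0 reads is 3 reads over a pooled group. Fits were tested on simulated data. Likeness of pattern is the Pearson r of log2 CPM with a prior count of 2, the 3 highest per gene. Motifs were searched in the 250 bases before each RefSeq start, which leaves out the first transcribed bases. Gene positions are from GENCODE release M21.

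The genes and lists were chosen with earlier results of these data known. All 10 genes are named in each comparison, Vdr as the check of the labels, and of each other list its called members. Genes named beside these (Pth1r, Gc) were picked after their values were seen. Alternatives were RLE size factors, DESeq2 1.42.0, limma-voom (limma 3.58.1), no filter, halved counts, each library left out, replicate numbers or runs of library codes as a block, only the 2 genotypes compared, and the WT libraries of the same run. Within a group no 2 libraries were identical, and the smallest chi-square per degree of freedom between any 2 was 5.00 in duodenum and 1.96 in kidney.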

Additional observations from a re-analysis of the deposited data

Results flagged for a closer look

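Among 45 groups of libraries checked, 8 held a library whose gap to the nearest other library, as a share of the group's range on the log2(CPM + 0.1) scale, was above Dixon's 95% critical value for that group size. Chance alone takes about 1 group in 20 past that value. In kidney, AF2 4 was such a library for Cyp27b1, at 21.5 CPM beside 248 to 327 CPM in the other AF2 libraries, and for Fdx1, at 47.4 CPM beside 82.2 to 89.7 CPM. Kidney KO 2 was singled out for Cyp24a1 at 0.412 CPM, which is 1 read beside 0 in the 3 other KO libraries. Kidney WT 6 was low for Cubn, at 131 CPM beside 165 to 179 CPM. In duodenum, AF2 4 was low for Amn, at 53.0 CPM beside 62.3 to 63.8 CPM, and high for Fdx1, at 61.4 CPM beside 39.4 to 40.2 CPM. Duodenal AF2 3 was high for Dab2, at 16.0 CPM beside 10.4 to 11.2 CPM, and duodenal WT 4 was low for Cyp27a1, at 4.84 CPM beside 13.4 to 22.4 CPM. The labels do not say whether kidney AF2 4 and duodenum AF2 4 come from 1 mouse.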

How the results depend on the processing

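Cyp27b1 and Cyp24a1 kept their direction in kidney against WT under every alternative run, and Cyp24a1 was called under each of them. The count of called genes in kidney stayed at 2 in both comparisons with WT when any of the 14 kidney libraries was left out. It fell from 2 to 1, through Cyp27b1, in KO with limma-voom, and in both KO and AF2 with runs of library codes as a block and with the WT libraries of the same run alone. In duodenum AF2 against KO it rose from 0 to 1 (Amn) with DESeq2 and without the filter. For the difference of effects between tissues it was 2 with DESeq2 in KO and in AF2 (Cyp27b1 and Cyp24a1, with 0 to 2 duodenal reads a group). Leave-one-out values of Cyp27b1 in kidney ranged from 5.69 to 6.19 in KO and from 6.63 to 7.25 in AF2.

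Deviations of same-numbered libraries correlated at -0.10 to 0.08 within duodenum, -0.03 to 0.15 within kidney and -0.05 to 0.07 between tissues. Libraries of different numbers were not compared, so these values do not settle whether the replicate number pairs the libraries. With the replicate block the kidney KO count was 1, Cyp27b1 having a log2 fold change of 5.97 and an edgeR adjusted p of 0.157. With the block the tissue difference of the AF2 effect had 1 call, and the other counts did not change. Lrp2 in KO was -0.0195 and Fdxr in KO 0.00770 with the block.

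Changes of sign arose only in values that were called under no setting. With the code block, kidney KO values were -0.0965 for Lrp2, 0.0444 for Amn, 0.0103 for Fdxr and 0.000244 for Fdx1, AF2 values were -0.0321 for Amn and -0.0273 for Fdxr, and duodenal Cyp27a1 in KO was 0.37. With the WT libraries of the same run, KO values were -0.0976 for Lrp2, 0.0435 for Amn and 0.00876 for Fdxr, AF2 values were -0.0445 for Amn and -0.0416 for Fdxr, and duodenal Cyp27a1 in KO was 0.38. Lrp2 in KO was -0.00967 with halved counts. With each library left out, kidney values in KO spanned -0.0736 to 0.04998 for Lrp2, -0.0975 to 0.0178 for Amn and -0.306 to 0.0460 for Fdxr, and in AF2 -0.110 to 0.0952 for Amn and -0.209 to 0.0541 for Fdx1. The cause was not tested. Of 979 recomputed values, 940 kept direction and side of the threshold. They cover kidney against WT, WT kidney against WT duodenum and selected other differences. Of 758 recomputed values of 28 differences that the text does not print, 64 changed sign and 0 were called.

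Cyp27b1 between WT tissues lost its call with limma-voom (3.81), with halved counts (3.95) and without duodenal WT 2 (4.18). The code block was not run for that comparison. Adjusted p-values that DESeq2 left undefined were left out. Depth limits Cyp24a1 in the mutants and Cyp27b1, Cyp24a1 and Lrp2 in duodenum to statements about reads.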
